A study of Drosophila melanogaster with 3 samples.

Results

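The 10 genes described here encode or control the contractile apparatus of Drosophila muscle: the spectrin-repeat giant Msp300, the titin-like proteins sls and bt, the myosin heavy chain Mhc, the actins Act88F and Act57B, the tropomyosin gene Tm1, the troponin T gene up, the Z-disc scaffold Zasp52 and the transcription factor Mef2. They were taken by name from 13945 protein-coding genes on chromosome arms 2L, 2R, 3L, 3R, 4 and X, and their loci were set as the annotated gene plus 5 kb on either side. Pif1A (PFTAIRE-interacting factor 1A) fused at its C terminus to GFP was immunoprecipitated with an anti-GFP antibody from whole pupae of both sexes, of unknown age, in 3 biological replicates of 1 transgenic line, and the chromatin had been sonicated to 200 to 800 bp. All samples carry the tag, no flies without it were analysed here, and read depth is unknown from the peak lists. Whole pupae mix muscle with all other tissues, so a peak at a muscle gene does not say that Pif1A was bound in muscle. The lists give peaks and no RNA, so expression of these genes was not measured.

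In a sarcomere, actin thin filaments anchored at the Z-disc slide along myosin thick filaments, and tropomyosin and troponin on the thin filament make that sliding depend on calcium. The titin-like proteins of flies, made from sls and bt, tie thick filaments to the Z-disc, and the Zasp family of PDZ and LIM domain proteins helps to build the Z-disc. Msp300 belongs to the nesprins, which link nuclei to the cytoskeleton, and Mef2 is the MADS-box factor that switches on muscle genes in the embryo and again in the pupa, when most larval muscles are broken down and the adult muscles form.

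Sequences under 7 summits of Msp300, sls and Tm1 are shown first, because these 3 genes had peaks at their own starts in every replicate. Not shown are the Msp300 summit 464 bp before promoter 4 and the sls summit 3525 bp before its start. Both were found in 1 replicate alone. Each run is a deposited summit with the 50 bases on either side, read 5′ to 3′ on the strand of the gene from the RefSeq copy of Release 6 (dm6), the build of the lists. Capitals mark matches on either strand to any of 12 motifs searched: the GAGA motif GAGAG, the E-box CANNTG, the TATA box TATAAA, the initiator TCAGTT, the DRE palindrome TATCGATA and the CGATA inside it, the GATA-factor motif GATAA, the AP-1 motif TGANTCA, the Zelda motif CAGGTA, the repeat CACACACA, the M1BP motif GGTCACACT and the MEF2 consensus. CGATA and GATAA can share 4 letters. A run in lower case alone holds none of them.
Msp300 summit 342 bp before its promoter 2 (chr2L:5108120-5108220, plus strand): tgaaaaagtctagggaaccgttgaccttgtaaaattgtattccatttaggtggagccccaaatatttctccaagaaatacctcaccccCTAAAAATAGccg
Msp300 summit 669 bp before its promoter 4 (chr2L:5145667-5145767, plus strand): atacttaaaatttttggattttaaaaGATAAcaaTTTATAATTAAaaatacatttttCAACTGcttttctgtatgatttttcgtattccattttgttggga
sls summit 278 bp before its start (chr3L:2115839-2115939, minus strand): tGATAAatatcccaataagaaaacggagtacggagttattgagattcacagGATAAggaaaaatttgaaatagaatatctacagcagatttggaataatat
sls summit 1615 bp before its start (chr3L:2117176-2117276, minus strand): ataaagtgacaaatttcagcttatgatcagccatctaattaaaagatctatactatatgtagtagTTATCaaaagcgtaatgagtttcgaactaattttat
Tm1 upstream summit at promoter 2 (chr3R:15280940-15281040, plus strand): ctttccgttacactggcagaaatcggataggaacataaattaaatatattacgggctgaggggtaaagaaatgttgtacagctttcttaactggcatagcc
Tm1 downstream summit at promoter 2 (chr3R:15281195-15281295, plus strand): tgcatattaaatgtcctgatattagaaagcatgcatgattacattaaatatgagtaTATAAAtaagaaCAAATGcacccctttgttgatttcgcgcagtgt
Tm1 intron summit (chr3R:15293116-15293216, plus strand): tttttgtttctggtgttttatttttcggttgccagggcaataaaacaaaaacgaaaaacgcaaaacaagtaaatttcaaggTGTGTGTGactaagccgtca

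The capitals in the Msp300 run at promoter 2 are a match to the MEF2 consensus, 38 to 47 bases downstream of the summit. The next Msp300 run holds a GATA-factor motif, a TATA box, another MEF2 match that overlaps the TATA box by 5 bases, and an E-box. Both sls runs hold the GATA-factor motif and none of the others. Of the Tm1 runs, the upstream promoter summit has no match, the downstream one has a TATA box and an E-box, and the intron summit has CACACACA on the minus strand. A match describes the letters under a summit and does not show which factor was bound.

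The optimal list of the irreproducible discovery rate (IDR) procedure, made by the authors from the 3 replicates, holds 7283 peaks, and 28 of their summits lay inside the 10 loci. Those summits fell at 6 of the 10 genes: 9 at Mef2, 9 at Zasp52, 3 each at Msp300, sls and Tm1, and 1 at Act57B. The loci of bt, up, Mhc and Act88F held none. Of the 6 genes with a summit, 5 are over 30 kb long, and the part of gene length in these counts was not tested. Msp300 (106.1 kb), sls (75.9 kb) and Tm1 (30.6 kb) had 3 each. Zasp52 (54.4 kb) and Mef2 (45.4 kb) had 9 each, and bt (52.1 kb) had none. Over all protein-coding genes 41.3% had an optimal summit in the locus, 41.9% of those of 2 to 10 kb, 68.0% of those of 10 to 30 kb and 74.8% of the 663 over 30 kb. Of the 6 members over 30 kb, 5 had a summit and bt had none. No sample contrast exists in the series, so every count below is a description and none was tested.

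**Figure D1:**
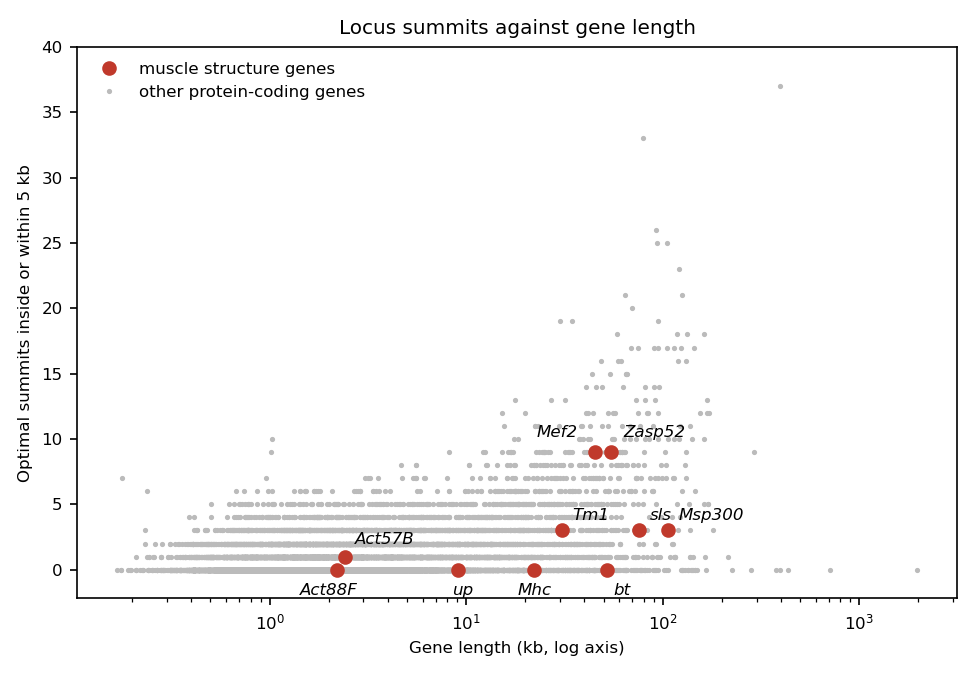
Number of optimal summits inside or within 5 kb of each gene (vertical axis) against gene length in kb (log axis), with the 10 muscle structure genes in red and the other protein-coding genes in grey. Mef2 and Zasp52 sit at 9 summits, Msp300, sls and Tm1 at 3, Act57B at 1, and bt, up, Mhc and Act88F at 0.

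The 10 loci together carried 0.56 optimal summits per 10 kb (exact Poisson 95% interval 0.372 to 0.809, counting error only). The loci of all genes over 30 kb carried 0.563 and the 6 arms as a whole 0.544. By member the density was 1.63 per 10 kb at Mef2 (0.743 to 3.09), 1.40 at Zasp52 (0.639 to 2.65), 0.74 at Tm1, 0.349 at sls and 0.258 at Msp300 (0.0533 to 0.755). The interval of Msp300 reaches only the lower ends of those of Zasp52 and Mef2. Such overlap does not show equal densities, and the difference was not tested. Among genes over 30 kb the median number of summits was 3, and 17.3% had 9 or more, as Mef2 and Zasp52 did. Overlapping peaks were counted separately in all these values.

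The same 6 genes had a locus summit when the 7283 highest peaks of each replicate, ranked by the authors' signal value, were used in place of the optimal list. The optimal list was made from these replicates, which share a control, so they are no independent check of it. The loci held 23 summits in replicate 1, 24 in replicate 2 and 26 in replicate 3, a mean of 24.3 ± 1.53 (SD, n = 3). Mef2 had 6, 8 and 7 of them, Zasp52 7, 5 and 9, Tm1 4, 3 and 4, sls 2, 4 and 3, Msp300 3, 3 and 2, and Act57B 1 in each. The 4 genes without an optimal summit had none in any replicate. Over all protein-coding genes the share with a summit in the locus was 45.6%, 45.8% and 44.1% in replicates 1, 2 and 3.

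Of the 28 summits, 15 (53.6%, exact Clopper-Pearson 95% interval 33.9% to 72.5%, counting error only) had a summit within 100 bp among the 7283 highest peaks of all 3 replicates, beside 56.1% of the whole optimal list. Another 6 were found in 2 replicates, 4 in 1 and 3 in none. Among the 19 summits inside a gene rather than in a flank, 7 were found in all 3. The scores were low for the most part, with a median of 120 at the loci against 153 over the optimal list. The median rank was 4989.5 at the loci and 3642 over the list. The lowest score, 87.9 in Zasp52, lay just above the lowest of the list, 87.7.

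**Figure D2:**
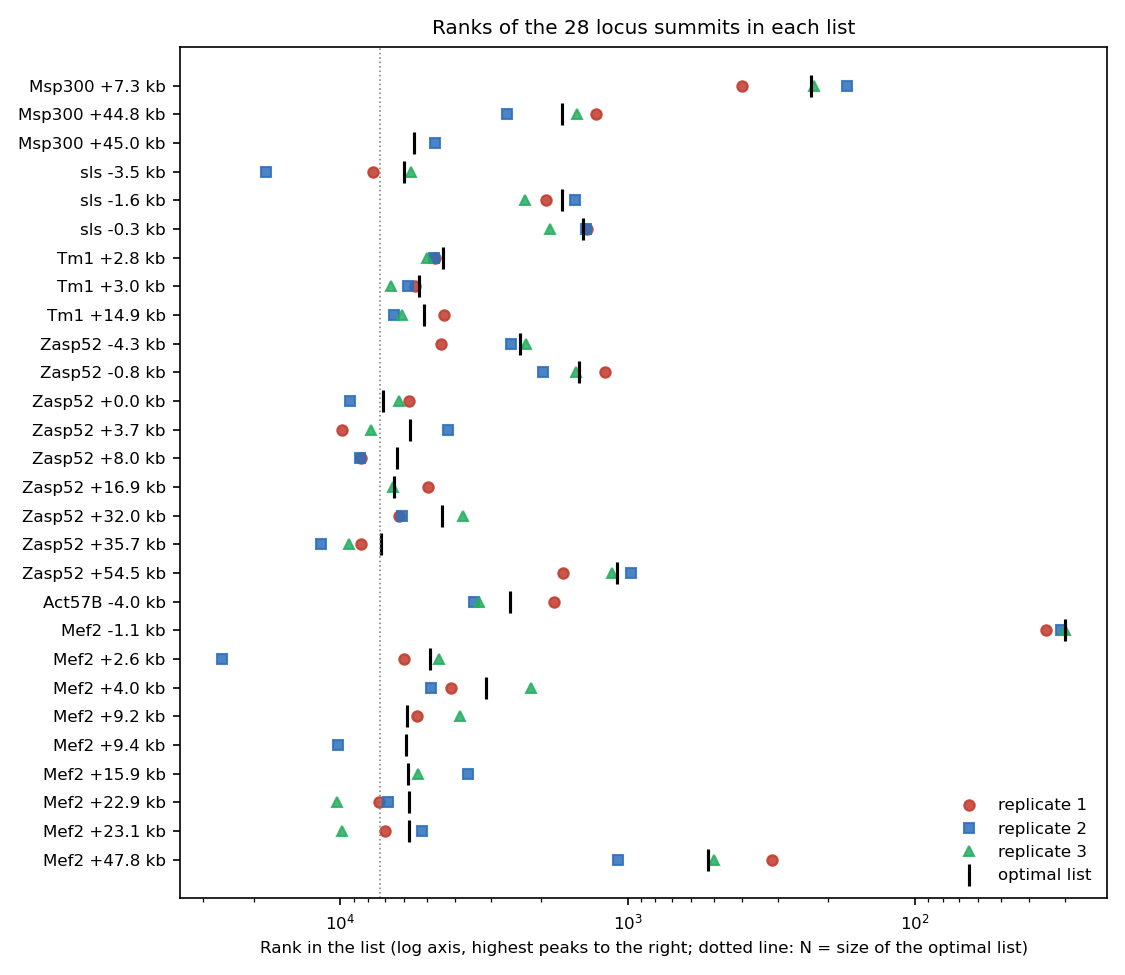
Rank (log axis, highest peaks to the right) of each of the 28 locus summits in the optimal list (black bar) and of the best summit within 100 bp in replicates 1 to 3 (coloured points); labels give the distance from the most 5′ start of the gene. The summit 1051 bp before Mef2 ranked 30 to 35 in every list, whereas most summits inside Mef2 and Zasp52 had a replicate below rank 7283 (dotted line, points to its left) or a replicate with no point.

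By position, 6 of the 28 summits lay within 500 bp of a transcription start (TSS) of the member itself and 3 within 500 bp of a start of another gene, so that 32.1% were near a start (15.9% to 52.4%), beside 31.2% of all optimal summits. Introns of the member held 13 (46.4%, 27.5% to 66.1%), the 5' UTR of Mef2 held 1 and the flanks held 5. By the rule used for the whole list, under which a summit inside an exon of any overlapping gene is not intronic, 14 of 28 summits were in introns, beside 48.1% of all optimal summits. None lay in a coding exon or a 3' UTR, which allows up to 12.3% (upper Clopper-Pearson limit). The shares of all optimal summits in coding exons and 3' UTRs were not counted, so this has no background here. Of the 19 summits inside a gene, 15 were on the 5′ side of its midpoint (78.9%, 54.4% to 93.9%), beside 60.2% over all genes longer than 30 kb, a value inside that interval.

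Within 500 bp of any annotated start, 4 members had an optimal summit: Msp300, sls, Tm1 and Zasp52. Of all protein-coding genes 14.1% did, and of those over 30 kb 37.7%. The same 4 genes were called in replicates 1 and 3, and Zasp52 was missing in replicate 2. Over all protein-coding genes the share called at a start was 17.3%, 15.8% and 15.5% in replicates 1, 2 and 3. With starts within 200 bp of each other joined, the 10 genes have 29 promoters, and 5 of these had an optimal summit. The shares over all promoters were 13.4% for protein-coding genes as a whole and 22.6% for genes over 30 kb. A further 13 promoters had entries only below rank 7283, and 11 had no entry in the pooled list or in any replicate. The matching shares over all promoters were not counted, so these numbers describe the members alone.

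**Figure D3:**
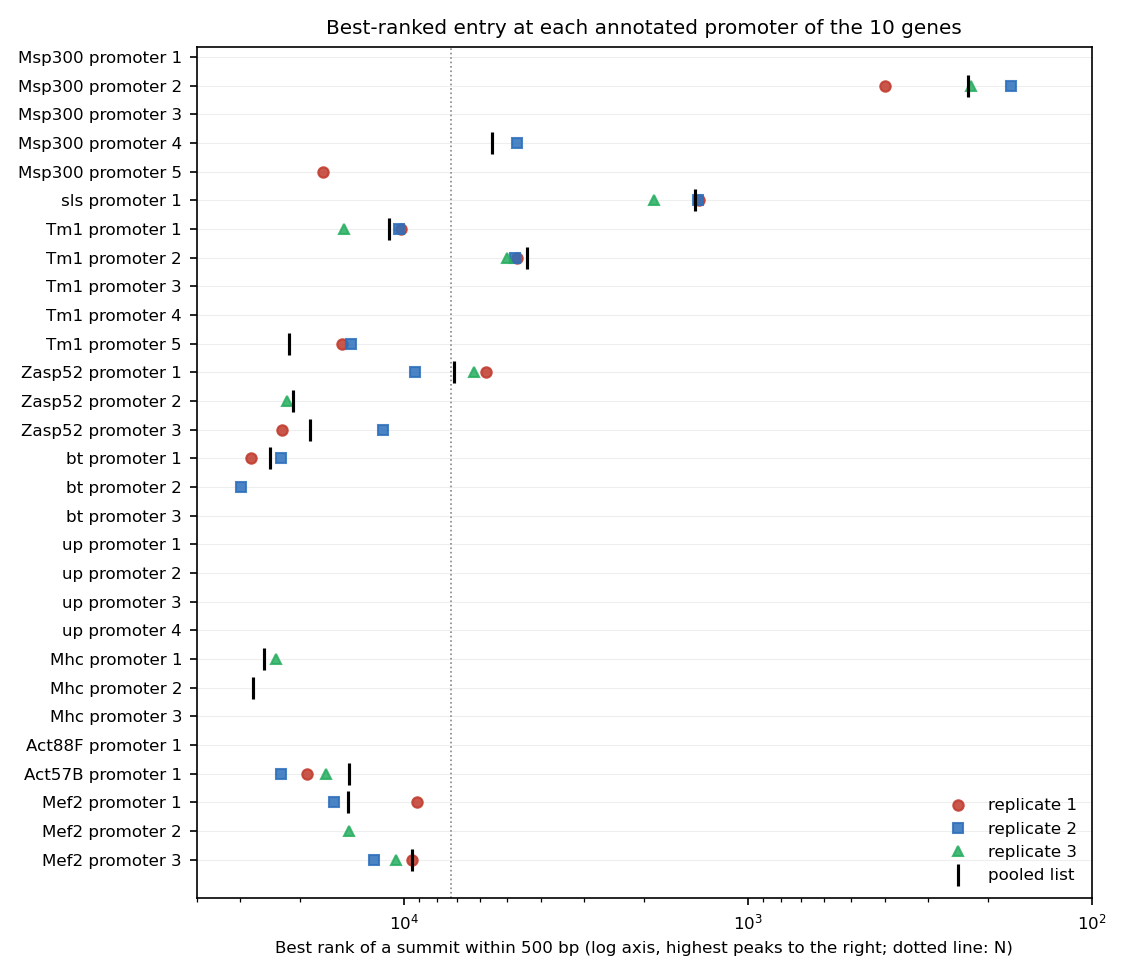
Best rank (log axis, highest peaks to the right) of a summit within 500 bp of each of the 29 annotated promoters, numbered 5′ to 3′, in the pooled list (black bar) and in replicates 1 to 3 (coloured points); the dotted line is rank 7283. Promoter 2 of Msp300 reached ranks 172 to 399 and the sls start 1388 to 1868 in the replicates, and a row with no mark had no entry in any of the 4 lists.

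Among the giant linker and titin-like proteins, Msp300 had the highest promoter peak. The gene lies on 2L from 5100877 to 5207002, plus strand (FBgn0261836), and has 5 promoters. Its summit at 5108170, 342 bp before promoter 2, from which 2 transcripts (Msp300-RD and Msp300-RL) start, had a score of 708 and ranked 229 in the optimal list. It ranked 399, 172 and 225 in replicates 1, 2 and 3, with summits at most 37 bp away. Promoter 1, where 4 transcripts start, had no entry within 500 bp in any list, nor did promoter 3. The other peaks of the gene were near promoter 4, the start of Msp300-RF, in intron 15 of 35. A summit at 5145717 lay 669 bp before it (score 259, ranks 1286, 2628 and 1504 in replicates 1, 2 and 3). An overlapping peak with its summit 205 bp further on (5145922, score 110) was found in replicate 2 alone (rank 4683). Promoter 5, with 3 transcripts, had only an entry of rank 17141, in replicate 1. Over the ranks in the 3 replicates, the promoters with an optimal summit most like that of Msp300 among 1683 compared, by distance in log10 rank, were those of NK7.1 (389, 200 and 258), a homeobox gene, rudhira (411, 230 and 247) and hid (307, 148 and 203), which promotes cell death.

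The sls gene (3L, 2039681 to 2115611, minus strand, FBgn0086906) had its 3 summits before its single annotated start, from which all 13 transcripts are annotated to begin, and none in the 75.9 kb of the gene. The nearest, at 2115889, lay 278 bp upstream, with a score of 290 and ranks 1388, 1394 and 1868 in replicates 1, 2 and 3. The second, 1615 bp upstream (2117226, score 259), ranked 1917, 1526 and 2275. It stood in the gap between sls and the 3′ end of zormin, 240 bp from zormin, which encodes another titin-like muscle protein and lies on the same strand. The farthest (2119136, score 104) lay inside zormin and in an exon of asRNA:CR45802, and was among the 7283 highest in replicate 3 alone (5695, against 7682 in replicate 1 and 18196 in replicate 2). The promoters nearest to that of sls in the ranks of the 3 replicates were those of AP-1sigma and GluProRS, which share a summit (1294, 1410 and 1783), and Rcd2 (1394, 1418 and 1625). In bt, the projectin gene (4, 724400 to 776474, plus strand, FBgn0005666), no list had an entry among its 7283 highest. The best in the pooled list, 63 bp from its first start, ranked 24496 of 30000, and replicate 3 had no entry in the locus. On chromosome 4 as a whole, 24 optimal summits make 0.178 per 10 kb, and 38.8% of its 80 protein-coding genes had a summit in the locus.

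Of the 4 thin-filament members, Tm1, Act57B, Act88F and up, only Tm1 had a peak at a start. Tm1 (3R, 15278220 to 15308779, plus strand, FBgn0003721) has 5 promoters. Promoter 2, where 11 transcripts start, had 2 overlapping peaks with summits 255 bp apart, at 15280990 (score 132) and 15281245 (score 114). The upstream one ranked 4700, 4733 and 4997 in replicates 1, 2 and 3, and the downstream one 5509, 5803 and 6690. Both were found in all 3 replicates. The remaining summit, at 15293166 (score 117), lay in intron 8 of 19, the longest of the gene at 3587 bp, 2220 bp past promoter 5 (ranks 4345, 6513 and 6109). Promoter 1 (Tm1-RT) had entries of rank 10203, 10298 and 14962, below the threshold in all 3 replicates, and promoters 3 and 4 had no entry.

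The other thin-filament members had weak entries or distal peaks. Act57B (2R, 20944021 to 20946431, plus strand, FBgn0000044), a muscle actin gene, had 1 summit, 4038 bp before its start (score 198), with ranks of 1810, 3438 and 3286 in replicates 1, 2 and 3. No other annotated start was nearer to it. At the Act57B start itself the entries ranked 19123, 22724 and 16773. Act88F (3R, 15439969 to 15442177, plus strand, FBgn0000047), the actin gene of the indirect flight muscles, had no entry within 500 bp of its start in any list, and its best entries, at 1270 to 2425 bp upstream, ranked 13066, 12946 and 14768 in the replicates. The troponin T gene up (X, 13593474 to 13602578, minus strand, FBgn0004169) had 4 promoters without an entry, and the best entries in the locus ranked 27616, 28083 and 26315, near the end of the lists. The ranks of Act88F and up all lie below 7283, in lists of 30000 entries that include background by design.

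The thick-filament member Mhc (2L, 16766566 to 16788766, plus strand, FBgn0264695) had no optimal summit in its locus. Of its 3 promoters, the first starts 16 transcripts. Its best entry, in the 3′ flank at the start of CG17928, ranked 10384 in the pooled list and 17651, 11310 and 7486 in replicates 1, 2 and 3, in the last case close to the threshold. At promoter 1 the pooled list had an entry 5 bp from a start, at rank 25486, and replicate 3 had one at rank 23478. Replicates 1 and 2 had none there.

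**Figure D4:**
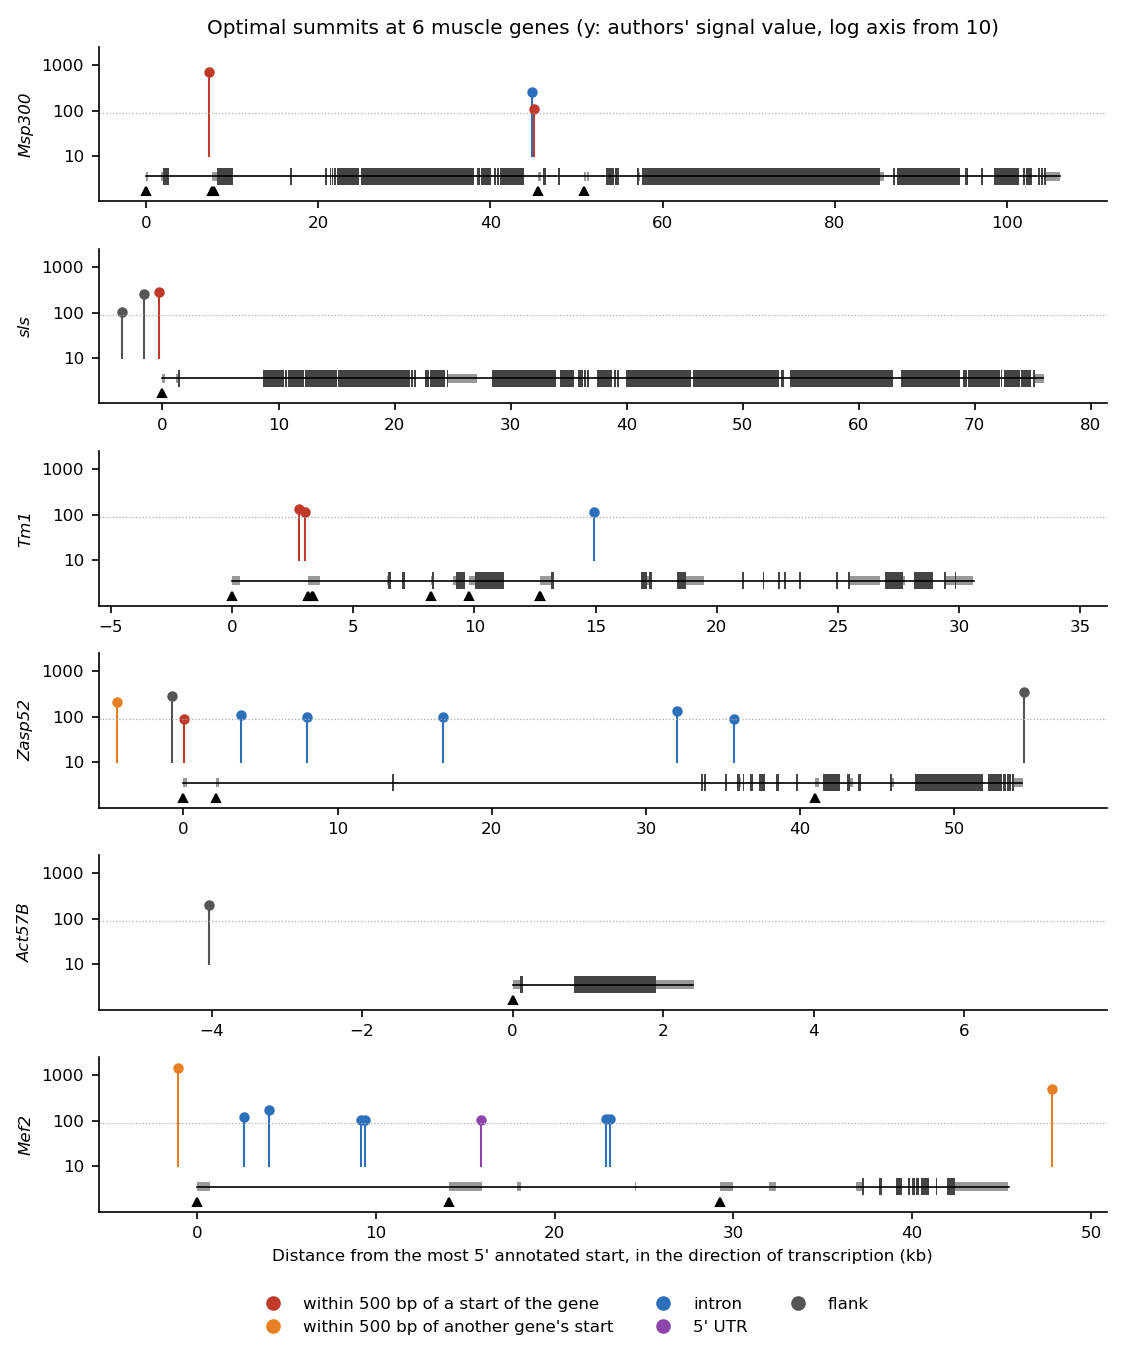
Optimal summits (coloured points, authors' signal value on a log axis) along the 6 genes that have any, by distance in kb from the most 5′ annotated start; grey and dark boxes are exons and coding exons, black triangles are annotated starts, and the dotted line is the lowest score of the optimal list, 87.7. Colours give the class of each summit, and all 3 summits of sls lie before the gene. Summits of Mef2 and Zasp52 are spread along the gene at scores of 87.9 to 172, and the highest points of both lie outside it.

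Zasp52 (2R, 15762565 to 15817004, minus strand, FBgn0265991) had its higher peaks outside the gene and a row of low ones along its introns. The highest, at 15762483, lay 82 bp past the 3′ end of the gene (score 344; ranks 1675, 976 and 1137 in replicates 1, 2 and 3). The next, at 15817773 (score 283; ranks 1197, 1964 and 1509), lay 769 bp before promoter 1, and one at 15821325 (score 208; ranks 4473, 2542 and 2251) lay 211 bp from the start of CG33465. The summit at promoter 1 itself, at 15816981 and 23 bp past the start, had a score of 89.2 and ranked 5754, 9281 and 6243. Promoter 2, from which 18 of the transcripts start, had no entry above rank 21018 in any list. The 5 intron summits scored 87.9 to 131, and 1 of them, at 15785015, was found in all 3 replicates (6250, 6113 and 3754). The gene tun, which overlaps the 5′ part of Zasp52 on the opposite strand, contains 6 of the 9 summits, so those 6 cannot be given to either gene from position alone.

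Mef2 (2R, 9913496 to 9958858, minus strand, FBgn0011656) had the highest peak of the 10 loci and no optimal summit within 500 bp of any of its own 3 promoters. That peak, at 9959909, scored 1420 and ranked 30 in the optimal list, with ranks of 35, 31 and 30 in replicates 1, 2 and 3. It lay 1051 bp before the first start of Mef2 and 169 bp from a start of Pal1, the divergent neighbouring gene, which encodes an enzyme of peptide amidation. A start of Pdrg1 also lay within 500 bp. Among the 663 genes over 30 kb, 7 (1.06%) had a summit of rank 30 or higher in the locus. That cutoff is the rank of this peak itself, so the share is a description and no test of Mef2. The second peak (9911042, score 499; ranks 313, 1084 and 499) lay 149 bp past the start of Etf-QO, a gene of mitochondrial electron transfer, beyond the 3′ end of Mef2. Of the 7 summits inside Mef2, which scored 105 to 172, the highest was at 9954845 (ranks 4109, 4856 and 2178) in intron 1, of 13359 bp, and it was the only one of the 7 found in all 3 replicates. Among the others, overlapping peaks had summits 211 bp apart (9935761 and 9935972) and 226 bp apart (9949438 and 9949664). Another, at 9956218, was found in replicates 1 and 3 (ranks 6006 and 4553). A replicate 2 summit of rank 6297 lay 112 bp from it, past the 100 bp limit. With overlapping peaks merged, the whole Mef2 locus held 7 summits in place of 9. The 3 promoters had entries no higher than rank 9134 in any list.

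Of the 13 intron summits, 11 (84.6%, 54.6% to 98.1%) lay in the longest or the next longest intron of the gene. Those introns make up 71.5% of intron length in Zasp52 and 54.5% in Mef2, the genes that hold all but 2 of the intron summits, and 30.8% in Tm1 and 31.6% in Msp300. In numbers of optimal summits, the genes over 30 kb most like Zasp52 were cic, ftz-f1 and Smr, and those most like Mef2 were Bicra, Pura and NK7.1, each with 9. In all, 27 genes of that length had 9, and ties were settled by gene length.

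The 5 kb limit lay in a gap of the peak map. The summits nearest to it on the inside were those 4321 bp from Zasp52 and 4038 bp from Act57B, and the nearest outside was 7446 bp from Msp300 (rank 4247), closest to the start of Pgant5. The nearest to Act88F lay 11968 bp away (rank 2281).

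For each motif, the share over all optimal summits lay inside the 95% interval of the share at the muscle loci, and with 28 summits these intervals are wide. A MEF2 match lay within 50 bp of 4 of 28 (14.3%, 4.03% to 32.7%), beside 5.48% of all optimal summits, and these were at Msp300 and Zasp52. The TATA box was at 35.7% (18.6% to 55.9%) beside 20.0%, the GATA-factor motif at 35.7% beside 21.7%, and the E-box at 25% beside 34.7%. The GAGA motif was at 3.57% (0.0904% to 18.3%), a single summit of Msp300, beside 13.3%. CGATA was at 4 of the 28 (14.3% beside 11%), the initiator at 4 (14.3% beside 7.84%) and the CACACACA repeat at 1 (3.57% beside 1.77%). The DRE palindrome, the AP-1, the Zelda and the M1BP motif were at none of the 28, which allows up to 12.3%, beside 0.522%, 2.62%, 1.80% and 0.275% of all summits. Any of the 12 motifs was at 23 of the 28 (82.1%, 63.1% to 93.9%), beside 74.0% of all optimal summits. The median GC content of these windows was 34.7% at the loci and 32.7% over the optimal list.

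A further 43 muscle genes outside the 10 members were read by role, with 8 (18.6%) having an optimal summit at a start and 23 (53.5%) having one in the locus, beside the 14.1% and 41.3% given above. By length, all 10 of these genes over 30 kb had a locus summit, 4 of 12 of 10 to 30 kb did, and 9 of 18 of 2 to 10 kb did, beside 74.8%, 68.0% and 41.9% of all protein-coding genes of those lengths. The 3 genes under 2 kb had none, and the share of all protein-coding genes of that length was not counted. In the thick-filament list (Mlc1, Mlc2, Prm, fln, Mf and Obsc, listed as Unc-89) none of 6 had one at a start and 1 had one in the locus, Mlc2. In the thin-filament list 2 of 10 had one in the locus, Act87E and tmod, and 1 of these at a start: tmod, the pointed-end cap tropomodulin (score 387, ranks 766, 907 and 1208 in replicates 1, 2 and 3). The calcium-store genes SERCA and RyR had none in the locus. Of these 16 filament genes, none of the 3 under 2 kb and 2 of the 8 of 2 to 10 kb had a locus summit. None of the 4 of 10 to 30 kb did, and tmod is the only one over 30 kb. The members Tm1 and Act57B, described above, are filament genes with a locus summit that are not in this count.

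All 7 attachment genes had a summit in the locus, beside the 41.3% of all protein-coding genes, with 2 at a start: rhea, the gene of talin (score 176, ranks 1843, 4350 and 4481), and if, an integrin alpha subunit gene (score 169, ranks 4029, 3741 and 3725). All 5 fusion genes had one in the locus, with 2 at a start: rols (score 261, ranks 2004, 2216 and 1489) and blow (score 129, ranks 7493, 3898 and 3633). Of 6 Z-disc genes 3 had one in the locus and 2 at a start, Actn, the alpha-actinin gene (score 170, ranks 2748, 3349 and 4044), whose summit also lay within 500 bp of a start of usp, and cher, the filamin gene (score 139), which had no summit within 100 bp in replicate 2. Of 7 fate and splicing regulators 5 had one in the locus and 1 at a start, mbl, a splicing factor gene (score 324, ranks 1041, 2920 and 834). Length differed by role: 3 of the 5 fusion genes, 3 of the 7 regulators, 2 of the 7 attachment genes and 1 of the 6 Z-disc genes are over 30 kb, where 74.8% of all protein-coding genes had a locus summit. Of those of 2 to 10 kb, 4 of 4 attachment, 1 of 1 fusion, 1 of 2 regulator and 1 of 3 Z-disc genes had one, beside 41.9%. At 10 to 30 kb the counts in that order were 1 of 1, 1 of 1, 1 of 2 and 1 of 2, beside 68.0%. The part of length in these counts was not tested.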

How the data were processed

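The authors deposited narrowPeak lists on dm6 and dm3, and only those on dm6 were used. Per the descriptions deposited with the files, each replicate list and the pooled list hold peaks and background as IDR input, made with a shared control, and the optimal list was derived from them. Each peak carries a signal value deposited by the authors, used to rank peaks within a list (rank 1 is the highest). For the aligner, the peak caller and the IDR threshold, details were not given in the sources used here. Without reads per peak, the depth behind a value is unknown. The optimal list equals the 7283 highest entries of the pooled list.

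A summit is the peak start plus the deposited offset, given 1-based. Genes, transcripts and starts came from Ensembl release 115 (same assembly), without transposable elements and pseudogenes; 2 older symbols were matched through RefSeq names. Introns are the gaps between merged exons. A replicate match is its best peak with a summit within 100 bp. The series has 1 group and no contrast, so no test was run. Intervals are exact 95% intervals for counting error; summits are not independent replicates. Named genes follow a rule: the members, their highest summits and neighbours, the 4 highest per role in the other lists, and the nearest genes in rank or number. Ties in number of summits were settled by gene length. The members and lists were chosen with earlier results of these data known. Genes named outside that rule (Mlc2, Act87E, the genes without peaks, zormin, tun, CG17928, Pgant5 and those of the closing section) were named after their values were seen. The call of summits at starts and the matching within 100 bp were checked on planted summits, and the other steps were not. The software was Python 3.11.15, pandas 2.3.3 and scipy 1.17.1.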

Additional observations from a re-analysis of the deposited data

How the results depend on the processing

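The number of members with a locus summit, 6, was 4 with the gene alone, 5 with flanks of 2 kb and 5 with the 3641 highest peaks, where 13.7%, 28.7% and 29.6% of all protein-coding genes were called, against 41.3% as reported. It was 6 under the other alternatives run. With flanks of 10 kb, 57.2% of all protein-coding genes were called, and with overlapping peaks merged 41.3%. Without replicate 1, 2 or 3 that share was 34.2%, 34.2% and 33.6%. The 4 with a summit at a start were 2 when the optimal list was limited to its 3641 highest peaks and 2 with a TSS window of 200 bp, where 8.36% and 9.19% of all protein-coding genes were called. Without replicate 1, 2 or 3, members with a summit at a start numbered 3, 4 and 3, beside 9.86%, 10.5% and 10.1% of all protein-coding genes. With those 3641 peaks, the loci held 11 summits (0.22 per 10 kb), introns 18.2% of them, and 10 of the 11 had a motif match, against 23 of 28 as reported. With the gene alone (no flank), the loci held 19 summits, with 68.4% of them in introns. Of those 19, 7 were found in all 3 replicates, beside 56.1% of the whole optimal list. With 3641 peaks per replicate, 9 of 28 were found in all 3, beside 31.4% of the optimal list, and a replicate had 11 on average. With a TSS window of 200 bp, 14.3% of summits were near a start and 5 of the other muscle genes had one there. Without 1 replicate, keeping summits matched in both others, the loci held 16 to 19 summits (0.32 to 0.38 per 10 kb), introns 25% to 36.8% of them, and 14 of 16 to 17 of 19 had a motif match; the summits of Zasp52 and Mef2 were 4 each without replicate 1 or replicate 3, and Mef2 had 5 without replicate 2. These sets are smaller by construction. With overlapping peaks merged, the loci held 24 summits (0.48 per 10 kb), 45.8% of them in introns. Zasp52 then had 9, Mef2 7, and Msp300 and Tm1 2 each. Under the settings of this section, the intron, start and motif shares of all optimal summits and the density over the arms were not counted. The changes in those values therefore have no background here. No paired analysis was possible because the series has 1 group. Depth is unknown, and the number of summits limits the precision of all shares.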

Other observations

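A peak seen in 1 replicate only stood at the edge of the Tm1 locus. In replicate 3 a summit at 15275533 on 3R, 2687 bp before Tm1 and within 500 bp of starts of Cp190, the gene of an insulator protein, and CG4338, ranked 1304 (score 113). No summit lay within 100 bp in replicates 1 and 2 or in the pooled list, background entries included. Within Zasp52, replicate 3 also had a summit ranked 5871 at 15790282, beside rank 7815 in replicate 2 and none in replicate 1, and replicate 2 had one in a 3' UTR of Mef2 (9915304, rank 4691) with rank 8258 in replicate 3 and none in replicate 1.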
